A study of Mus musculus with 12 samples.

Results

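The lysyl oxidase family of the mouse has 5 genes, Lox, Loxl1, Loxl2, Loxl3 and Loxl4, and all 5 were measured in 12 melanoma tumours taken at 4 passages. They were found by their GENCODE M21 symbols among 34436 gene rows of the expression table. Each of the 5 passed the filter on low values, as did 17491 genes in all. The family was chosen by earlier readings of these same normalised counts, in which Loxl1 was lower after passaging, so every difference of Loxl1 from the first passage is given as a description, with no test.

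Polyadenylated RNA was sequenced from bulk tumour pieces, 3 tumours (A to C) per passage. YUMM1.7, the line behind all of them, is a murine melanoma culture derived from C57BL/6 mice that has mutant Braf and no functional Cdkn2a. F0 tumours grew from cells of the line placed in syngeneic mice. Tumours were then taken apart and their cells moved to the next host, through F1, F2, 3 passages whose names begin with N2, 2 named for Balb/c and 1 named CBA. N2.1, then Balb/c-2, then CBA are the later passages that were sequenced, and all descend from the same line. Host sex and age are not given in the labels, and the host strain is given only by the passage names. The 3 tumours of a passage come from the same series of transfers, so all errors and p values describe how tumours of 1 passage vary and not how repeated series of transfers would.

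Lysyl oxidases are secreted, copper-dependent amine oxidases. They oxidise lysine and hydroxylysine side chains of collagens and elastin to aldehydes, which then react with neighbouring chains to form the crosslinks that make extracellular matrix stiff and insoluble. Lox and Loxl1 are made with a propeptide that Bmp1 and related proteases cut off, and Loxl1 is needed to keep elastic fibres intact. Loxl2, Loxl3 and Loxl4 carry scavenger receptor cysteine-rich domains before the shared catalytic domain. In solid tumours the family is known for remodelling of matrix by fibroblasts and tumour cells and for induction by hypoxia and TGF-beta.

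The copper-binding stretch of the catalytic domain, in which 3 histidines alternate with other residues, marks the family and is shown for that reason. Given here for 4 members are 54 bases of the coding sequence, 5′ to 3′, from GENCODE M21 transcripts, with the 3 histidine codons in capitals.
Loxl1: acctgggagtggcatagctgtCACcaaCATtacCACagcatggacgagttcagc
Loxl2: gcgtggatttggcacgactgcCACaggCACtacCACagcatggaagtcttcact
Loxl3: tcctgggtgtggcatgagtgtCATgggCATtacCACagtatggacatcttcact
Loxl4: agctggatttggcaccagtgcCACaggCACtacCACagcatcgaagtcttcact
Loxl2 and Loxl4 share 48 of these 54 bases, with a longest identical run of 23 bases. The other pairs share 35 to 41 bases. Over the last 220 residues translated from the longest reading frame, Lox and Loxl1 were 71.8% identical, and Loxl2, Loxl3 and Loxl4 were 66.8% to 69.4% identical to each other. The longest run of identical bases between any 2 whole transcripts of the family was 32 bases, between Lox and Loxl1.

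Depth was 34721735 to 59404254 reads per tumour, and values are normalised read counts, of which 1 read was worth 0.8266 to 1.2451. All F0 and N2.1 tumours and Balb/c-2 A were on 1 flow cell (7 tumours), and all CBA tumours and the other Balb/c-2 tumours on another (5 tumours), so a difference of CBA from F0 or N2.1 can be separated from the flow cell only through Balb/c-2. The Balb/c-2 tumours resembled each other less (mean correlation 0.904 to 0.924) than tumours of the other passages resembled their own group (0.942 to 0.973). The tissue is labelled melanoma: of 7 markers of that lineage, Tyr, Dct and Mlana stayed under 10 in all 12 tumours, Pmel was at 12.5 to 59.6, Mitf at 318 to 1290 and Sox10 at 0.95 to 178.

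Loxl1 was the family's most abundant RNA per length of exon in 12 of 12 tumours, and Loxl3 came second in 11 of 12. Levels between genes are compared here as normalised counts per kb of union exon. On that scale Loxl1 averaged 6193 ± 1769 in F0, 3646 ± 327 in N2.1, 2040 ± 381 in Balb/c-2 and 2873 ± 471 in CBA (SD, n = 3). Loxl3 averaged 1755 ± 292, 961 ± 217, 707 ± 233 and 839 ± 103 per kb in the same order of passages. Lox came next in 10 of 12 tumours, then Loxl2, in that place in 11, and Loxl4 last in 11. F0 B broke this order, with Loxl4 above Lox and Lox above Loxl2, and Balb/c-2 C broke it with Lox above Loxl3. Neighbours in the order of the means did not overlap within 1 SD of each mean, with these exceptions. Lox and Loxl3 overlapped in N2.1, at 726 ± 103 and 961 ± 217 per kb, and in Balb/c-2, at 610 ± 120 and 707 ± 233. In F0, Lox at 560 ± 400, Loxl4 at 108 ± 58.8 and Loxl2 at 108 ± 84.6 per kb all overlapped.

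Among 17468 tested genes with an exon length, Loxl1 lay on average at the 97.9th percentile per kb in F0, the 96.0th in N2.1, the 92.8th in Balb/c-2 and the 94.9th in CBA. Loxl3 lay between the 71.6th and the 93.5th percentile over the 12 tumours, Lox between the 44.9th and the 84.6th, Loxl2 between the 24.0th and the 68.3rd, and Loxl4 between the 20.3rd and the 51.2nd. The sum of the 5 genes per kb was 8725 ± 1453 in F0, 5618 ± 452 in N2.1, 3629 ± 228 in Balb/c-2 and 4004 ± 431 in CBA. The lowest F0 tumour (7441) lay above the highest later tumour (6127). Loxl1, whose lower level the choice of the family used, made up 45.8% to 79.5% of this sum. The gap is therefore a description and not a separate result about the family.

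**Figure D1:**
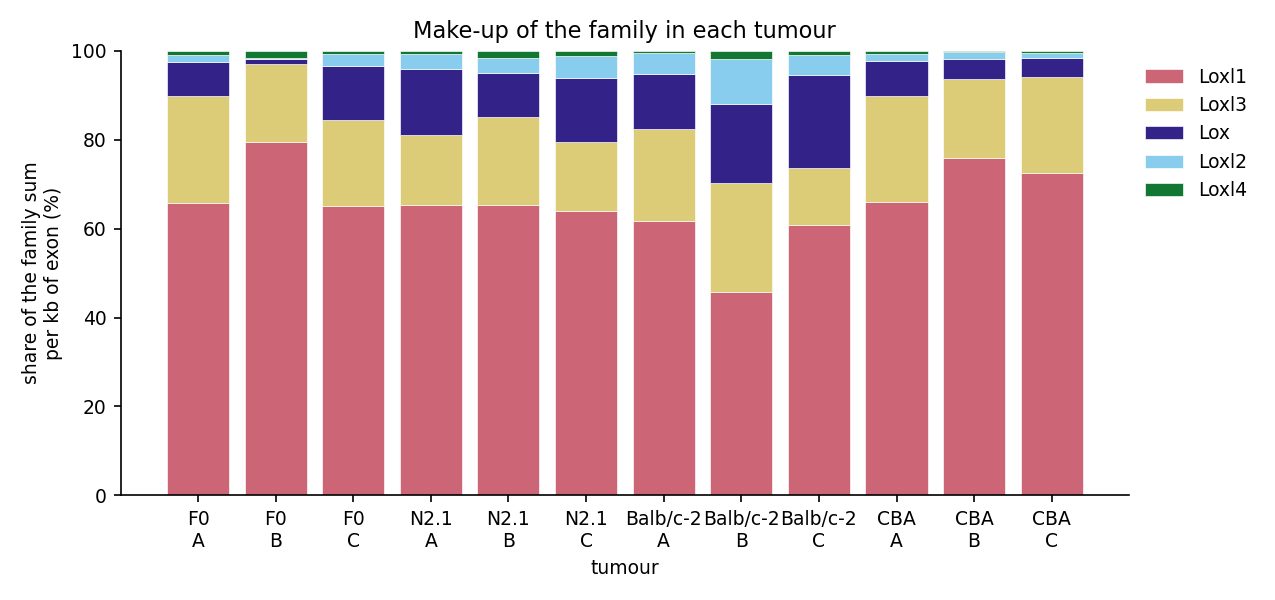
Share of each family gene in the sum of the 5 genes, in percent of normalised counts per kb of exon (y axis, bars start at 0), for each of the 12 tumours (x axis). Loxl1 makes up 45.8% to 79.5% of every bar, and the share of Lox is smallest in F0 B (1.17%) and largest in Balb/c-2 C (20.8%).

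The make-up of the family differed between tumours and passages. Loxl1 held 70.1% ± 8.18 of the family sum per kb in F0, 64.9% ± 0.823 in N2.1, 56.1% ± 8.95 in Balb/c-2 and 71.5% ± 4.99 in CBA. Lox held 7.04% ± 5.52, 13.1% ± 2.68, 17.0% ± 4.30 and 5.50% ± 1.89 in the same order, and Loxl2 held 1.37% ± 1.17, 3.91% ± 0.962, 6.47% ± 3.07 and 1.46% ± 0.301. The Lox and Loxl2 shares were larger in N2.1 and Balb/c-2 than in CBA, with no overlap between tumours. The lowest shares of both were in 1 tumour, F0 B, in which Lox held 1.17% and Loxl2 0.188%. Loxl3 stayed between 12.9% and 24.5% in all 12 tumours.

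Loxl1 (ENSMUSG00000032334, mm10 chromosome 9, 58287738 to 58313186, minus strand), the elastic fibre member, had 18260 normalised counts in F0 A, 27022 in F0 B and 15969 in F0 C. It had 11762, 13202 and 11095 in N2.1, 7899, 5402 and 6872 in Balb/c-2, and 7678, 10312 and 10425 in CBA. Every later tumour lay below every F0 tumour, the nearest values being 13202 in N2.1 B and 15969 in F0 C. Balb/c-2 A (7899) and CBA A (7678) overlapped, and the other Balb/c-2 and CBA tumours lay on either side of them. In bulk tumours, fewer cells of the type that makes a transcript and less of it per cell cannot be told apart, here and in all that follows.

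Loxl3 (ENSMUSG00000000693, chromosome 6, 83034173 to 83052562, plus strand), which in mice is needed for palate and spine development, followed the same order. The F0 tumours A, B and C had 9329, 8251 and 6657 normalised counts. Loxl3 was at 3936, 5573 and 3765 in N2.1, 3694, 4039 and 2032 in Balb/c-2, and 3877, 3377 and 4329 in CBA. All 9 later tumours lay below all 3 F0 tumours, and the 3 later passages overlapped each other. Such a placement of 9 later tumours below 3 F0 tumours was found for 3.77% of all genes tested and for Loxl1 and Loxl3 in the family. Loxl3 shares 535 exon bases, 11.6% of its exons, with Htra2 on the opposite strand, a gene at 1011 to 2314 normalised counts, and reads there cannot be assigned without strand.

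**Figure D2:**
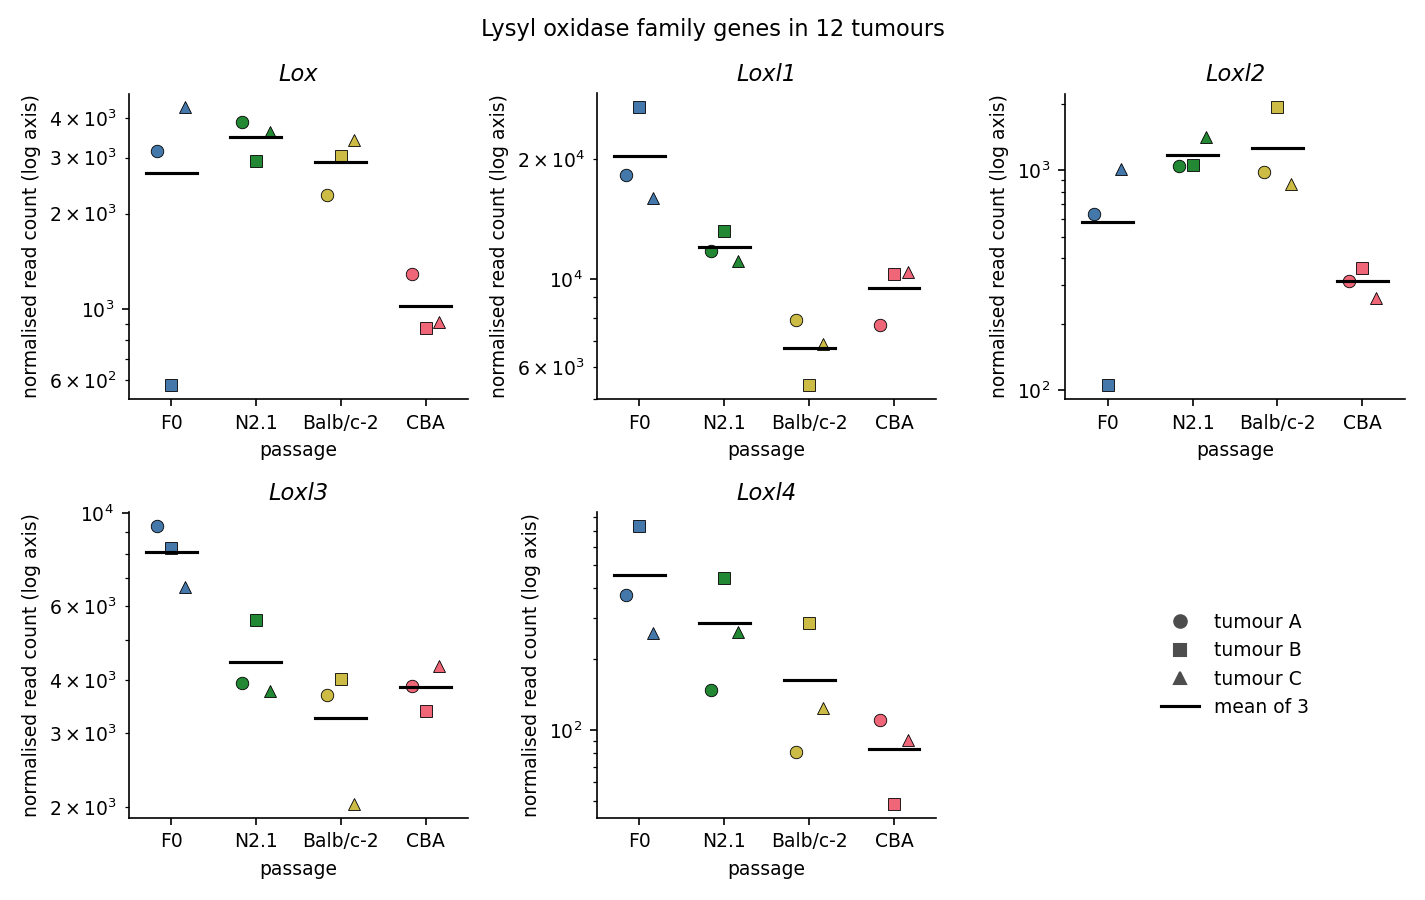
Normalised read counts (log y axis) of Lox, Loxl1, Loxl2, Loxl3 and Loxl4 in 12 tumours by passage (x axis), with a symbol for each tumour letter and a line at the mean of 3. For Loxl1 and Loxl3 all later tumours lie below F0, while for Lox and Loxl2 F0 B (577 and 105) lies far under the other F0 tumours and CBA lies below N2.1 and Balb/c-2.

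Lox (ENSMUSG00000024529, chromosome 18, 52516067 to 52529867, minus strand), the founding member, which crosslinks fibrillar collagen and elastin, had another profile. F0 A had 3145 normalised counts, F0 B 577 and F0 C 4312, and the N2.1 tumours had 3872, 2922 and 3616. It had 2287, 3040 and 3414 in Balb/c-2 and 1294, 874 and 914 in CBA. All 3 CBA tumours lay below all 6 tumours of N2.1 and Balb/c-2, and F0 B lay below CBA while F0 A and C did not. On the log2 scale the SD of Lox was 1.56 in F0, against 0.21 to 0.31 in the later passages.

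Loxl2 (ENSMUSG00000034205, chromosome 14, 69609068 to 69695834, plus strand), which in mice and in cultured cells acts on basement membrane collagen IV, resembled Lox. F0 A had 632 normalised counts, F0 B 105 and F0 C 1016, and the N2.1 tumours had 1046, 1053 and 1422. It had 984, 1936 and 871 in Balb/c-2 and 315, 361 and 263 in CBA. CBA again lay below all tumours of N2.1 and Balb/c-2, and F0 B was the lowest of all 12. Over the 12 tumours Loxl2 spanned a factor of 18.4 and Lox a factor of 7.47, against 5.002 for Loxl1 and 4.59 for Loxl3.

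The ratio of the paired members shows F0 B most plainly. Loxl1 stood at 67.8 times Lox per kb in F0 B, against 8.42 in F0 A and 5.37 in F0 C. It was 4.40 to 6.55 in N2.1, 2.58 to 5.004 in Balb/c-2 and 8.60 to 17.1 in CBA. Within each pair the ratios moved less: Lox to Loxl2 ranged from 1.78 to 6.22 and Loxl1 to Loxl3 from 1.87 to 4.72 over the 12 tumours.

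Loxl4 (ENSMUSG00000025185, chromosome 19, 42593982 to 42612813, minus strand), the scarcest member, had 375 normalised counts in F0 A, 734 in F0 B and 258 in F0 C. It had 149, 443 and 261 in N2.1, 81.0, 286 and 124 in Balb/c-2, and 110, 48.6 and 90.9 in CBA. CBA lay below F0 and N2.1 without overlap, and Balb/c-2 overlapped all the other passages. F0 B, the lowest F0 tumour for Lox and Loxl2, was the highest of all 12 for Loxl4.

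N2.1 was set against F0 for what differed after the early transfers. Loxl1 averaged 12020 ± 1077 normalised counts in N2.1 and 20417 ± 5834 in F0 (SD, n = 3 each), a log2 change of -0.73 ± 0.24 (SE). Loxl3 averaged 4425 ± 998 in N2.1 and 8079 ± 1344 in F0, a log2 change of -0.88 ± 0.28 that missed the threshold of 0.05 in limma (adjusted p = 0.0773). Lox differed by 0.79 ± 0.57 (adjusted p = 0.480), Loxl2 by 1.51 ± 0.66 (0.191) and Loxl4 by -0.68 ± 0.57 (0.565) in the same limma fit. Limma called 0 of 5 members, where it called 7.91% of all genes tested. At an unadjusted p under 0.05 it had 3 members, Loxl1 among them, where 23.1% of all genes passed. EdgeR called 0, where it called 6.25% of all genes, and DESeq2 called 2, Loxl1 and Loxl3, where it called 15.2%. Every count of calls against F0 that holds Loxl1 is a description as far as Loxl1 goes.

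Tumours of N2.1 and F0 with the same letter deviated together, and with the letter as a block in a fit of these 6 tumours limma called Loxl3, with an adjusted p of 0.005, and, as a description, Loxl1. That fit called 30.9% of all genes. Its block was added after seeing these data, and the labels say nothing of pairs. By the tumours' ranges, Loxl1 and Loxl3 were lower without overlap (17.8% of all genes were) and Loxl2 was higher without overlap (20.4% were). The nearest Loxl2 values of the 2 groups were 1046 in N2.1 A and 1016 in F0 C. Without F0 B the change of Lox was -0.10 in place of 0.79, and that of Loxl2 was 0.54.

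Balb/c-2 was set against F0 for what differed after a passage named for another strain. Loxl1 averaged 6724 ± 1255 normalised counts in Balb/c-2 and 20417 ± 5834 in F0, a log2 change of -1.58 ± 0.24. Loxl3 fell to 3255 ± 1073 in Balb/c-2, against 8079 ± 1344 in F0, a log2 change of -1.36 ± 0.28 (limma, adjusted p = 0.0237). Loxl4 averaged 164 ± 108 in Balb/c-2 and 456 ± 248 in F0, a change of -1.53 ± 0.57 that was not called (0.171). Lox changed by 0.53 ± 0.57 (0.673) and Loxl2 by 1.54 ± 0.66 (0.231), neither called, and Lox changed by -0.36 without F0 B. Limma called 2 of 5 members lower, Loxl3 and, as a description, Loxl1, where it called 3.51% of all genes and 1.63% lower. The same 2 were lower without overlap, as were 11.7% of all genes.

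The call of Loxl3 in Balb/c-2 against F0 did not hold under every fit. Its adjusted p in limma was 0.0878 without F0 A, 0.0902 without F0 B, 0.128 with Balb/c-2 and F0 alone and 0.216 with the flow cell as a covariate. Within the first flow cell, which holds Balb/c-2 A alone of its group, the log2 change against F0 was -1.33 for Loxl1 and -1.11 for Loxl3, values of 1 tumour with no spread of their own.

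CBA was set against F0 across the whole series of transfers. Loxl4 fell to 83.2 ± 31.4 normalised counts in CBA, against 456 ± 248 in F0, a log2 change of -2.38 ± 0.57 (limma, adjusted p = 0.0359). Loxl1 averaged 9472 ± 1554 in CBA and 20417 ± 5834 in F0, a log2 change of -1.08 ± 0.24. Loxl3 averaged 3861 ± 476 in CBA and 8079 ± 1344 in F0, a change of -1.06 ± 0.28 that missed the threshold (adjusted p = 0.0521). Lox changed by -0.97 ± 0.57 (0.416) and Loxl2 by -0.39 ± 0.66 (0.820), neither called. Limma called 2 of 5 members lower, Loxl4 and, as a description, Loxl1, where it called 5.04% of all genes and 2.69% lower. Loxl1, Loxl3 and Loxl4 were lower without overlap, as were 16.8% of all genes.

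For CBA against F0 single tumours decided several calls. Lox changed by -1.86 (limma, adjusted p = 0.0053) without F0 B, in place of -0.97. Loxl3, at 0.0521, had an adjusted p of 0.0331 without Balb/c-2 B, 0.0185 without Balb/c-2 C, 0.0384 with CBA and F0 alone and 0.0093 in DESeq2, and was above 0.05 under the other alternatives. The adjusted p of Loxl4 was 0.0919, 0.148, 0.0606, 0.0696, 0.108 and 0.0810 without F0 A, F0 B, N2.1 C, CBA A, CBA B and CBA C, in that order. With the flow cell as a covariate, limma called 0 of 5 members and 0.372% of all genes, and the change of Loxl4 was -3.59 (adjusted p = 0.176) and that of Loxl1 was -0.71.

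The 3 comparisons above share the F0 tumours, so their members' values are not independent of each other. The median log2 change of the 4 members other than Loxl1 was 0.057 in N2.1, -0.41 in Balb/c-2 and -1.02 in CBA against F0. With Loxl1, whose lower level the choice of the family used, it was -0.68, -1.36 and -1.06, so that its direction in N2.1 rests on Loxl1. The median of all genes tested was -0.02, -0.02 and -0.08.

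**Figure D3:**
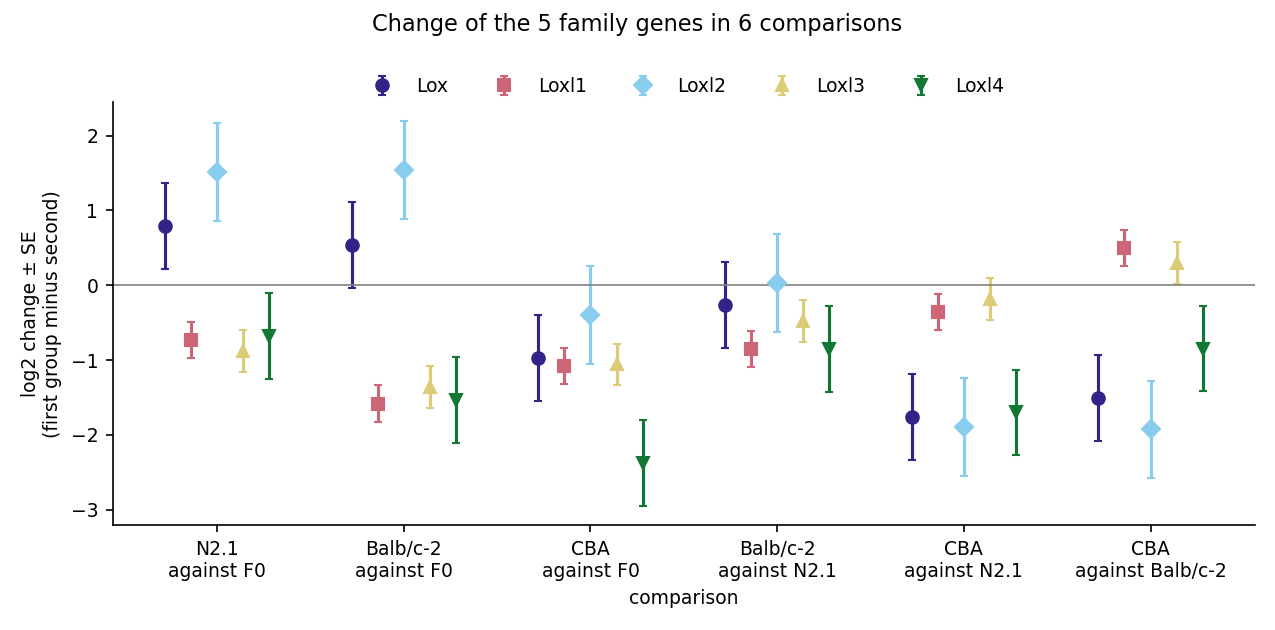
Log2 change ± SE (y axis, first group minus second) of the 5 family genes in each of 6 comparisons (x axis) from the limma fit over 12 tumours. Loxl1, Loxl3 and Loxl4 lie below 0 in all 3 comparisons with F0, while Lox and Loxl2 lie lowest in CBA against N2.1 (-1.77 and -1.90) and CBA against Balb/c-2 (-1.51 and -1.93).

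The later passages were also set against each other. Balb/c-2 against N2.1 gave 0 of 5 members called by limma, where 2.32% of all genes were called. Loxl1 averaged 6724 ± 1255 in Balb/c-2 and 12020 ± 1077 in N2.1, a log2 change of -0.85 ± 0.24 (adjusted p = 0.101 in limma). It was the 1 member lower without overlap, as were 12% of all genes, the 1 member with an unadjusted p under 0.05, as 16.5% of all genes had, and the 1 member that DESeq2 called, where DESeq2 called 7.32% of all genes. EdgeR called 0, where it called 1.72% of all genes. The family was chosen because Loxl1 was lower after passaging in these same counts, so its results here are a description too. The other 4 members changed by -0.85 to 0.03, with limma adjusted p of 0.419 to 0.988.

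CBA against N2.1 was the comparison in which the most members were lower without overlap. They were Lox, Loxl2, Loxl4 and, as a description, Loxl1, 4 of 5, where 20.6% of all genes were. Lox averaged 1027 ± 232 in CBA and 3470 ± 491 in N2.1, a log2 change of -1.77 ± 0.57 (limma, adjusted p = 0.0906). Loxl2 averaged 313 ± 48.9 in CBA and 1174 ± 215 in N2.1, a change of -1.90 ± 0.66 (0.111). Loxl4 averaged 83.2 ± 31.4 in CBA and 284 ± 149 in N2.1, a change of -1.70 ± 0.57 (0.103). Limma called 0 of 5 members, where it called 7.15% of all genes. It had 3 members at an unadjusted p under 0.05, where 21.6% of all genes passed. EdgeR called 0, where it called 5.75% of all genes, and DESeq2 called 3, Lox, Loxl2 and Loxl4, where it called 13.3%.

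The SEs of Lox and Loxl2 in these comparisons come from all 12 tumours, F0 B included. Without F0 B, with the log2 changes in CBA against N2.1 as before, limma called both, with an adjusted p of 0.0018 for Lox and 0.0063 for Loxl2, where it called 7.41% of all genes. With CBA and N2.1 alone the adjusted p was 0.0048 for Lox and 0.0040 for Loxl2. All CBA tumours were on another flow cell than N2.1, and with the flow cell as a covariate neither was called (0.436 and 0.498).

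Set against Balb/c-2, CBA again had lower Lox and Loxl2 without overlap, as 8.23% of all genes did. Lox averaged 1027 ± 232 in CBA and 2914 ± 574 in Balb/c-2, a log2 change of -1.51 ± 0.57 (limma, adjusted p = 0.290). Loxl2 averaged 313 ± 48.9 in CBA and 1264 ± 585 in Balb/c-2, a change of -1.93 ± 0.66 (0.219). Limma called 0 of 5 members, where it called 1.04% of all genes, and had 2 at an unadjusted p under 0.05, where 11.8% of all genes passed. DESeq2 called 1, Loxl2, where it called 5.93% of all genes, and edgeR called 0, where it called 0.572%. Without F0 B limma called both, at an adjusted p of 0.0176 for Lox and 0.0206 for Loxl2, where it called 1.34% of all genes. Among tumours of the second flow cell alone (CBA A to C, Balb/c-2 B and C) the changes were -1.67 for Lox (limma, adjusted p = 0.443) and -2.06 for Loxl2 (0.454).

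Loxl2 is the member whose count is least certain. Of 5356 windows of 50 bases in its transcripts, 2299 also occur in Gm21451, an unprocessed pseudogene on the same chromosome (69390854 to 69480287). In all, 2411 of the windows occur in 389 other genes, Gm21451 among them. Windows of Lox, Loxl1 and Loxl4 occur in no other gene, and those of Loxl3 only in the overlapping Htra2. Gm21451 had 8.30 to 276 normalised counts and 1.55% to 17.9% of the sum of both. The sum of Loxl2 and Gm21451 averaged 630.5 ± 479 in F0, 1327 ± 202 in N2.1, 1367 ± 735 in Balb/c-2 and 331 ± 52.0 in CBA, so the low values of F0 B (128) and CBA (271 to 369) are there in the sum too. An antisense gene, Gm27177, overlaps 301 exon bases of Loxl2 and had 108 to 394 normalised counts.

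The expression table also lists single copies of repeats, and 4 of them lie in exons of Loxl2, 1453 bases in all. They are MTEb-int, MTEa, B2_Mm1a and PB1D7. As parts of the same transcript, they are no separate measure of it. Their sum was 415 ± 342 in F0, 760 ± 177 in N2.1, 847 ± 359 in Balb/c-2 and 225 ± 25.2 in CBA. It was 60.1 in F0 B, the lowest of the 12 tumours. The sum stood at 0.573 to 0.839 times Loxl2 in every tumour. Both the sum and Loxl2 placed CBA and F0 B below N2.1 and Balb/c-2. Taken singly, MTEb-int and PB1D7 had CBA below N2.1 and Balb/c-2 without overlap, while B2_Mm1a and MTEa did not. B2_Mm1a was at 132 in CBA B and 63.2 in N2.1 B, and MTEa at 16.2 in CBA A and 15.4 in Balb/c-2 C. Loxl2 and the repeat copies come from the same libraries, and whether any read was counted for both is not given in the sources used here.

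**Figure D4:**
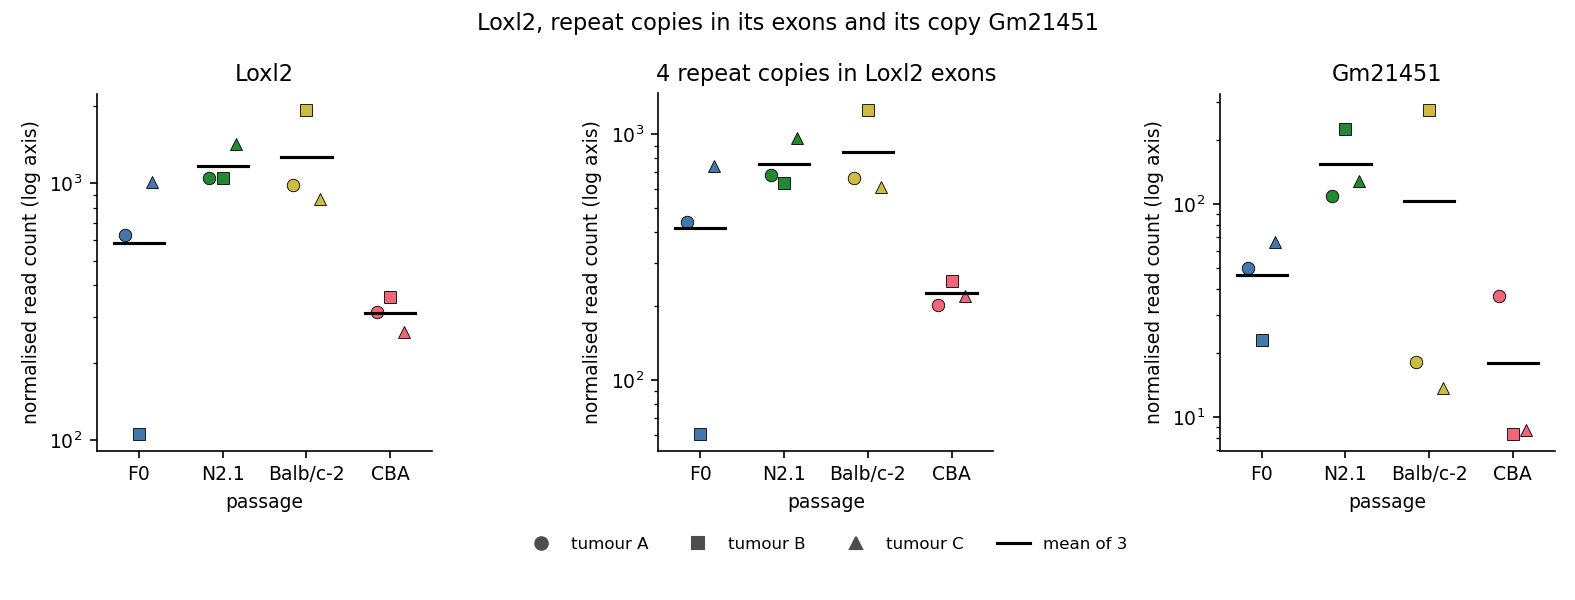
Normalised read counts (log y axes) of Loxl2, of the 4 repeat copies inside its exons and of its copy Gm21451 in 12 tumours by passage (x axis), with a line at the mean of 3. Loxl2 and the sum of the repeat copies are both lowest in F0 B (105 and 60.1) and next lowest in CBA (263 to 361 and 203 to 253). Gm21451 (8.30 to 276) varies among tumours of a passage.

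The substrates of the enzymes were read from lists of matrix genes that were drawn up by known function. Earlier results of these data were known by then, so the counts called in these and the later lists are descriptions. Of all genes tested, limma called 7.91% in N2.1, 3.51% in Balb/c-2 and 5.04% in CBA against F0, in either direction. Against N2.1 it called 2.32% in Balb/c-2 and 7.15% in CBA. Of 10 fibrillar collagen genes tested, 3 fell in Balb/c-2 against F0 and none in the other comparisons with F0 was called by limma. Col3a1, the type III collagen gene, fell to 67842 ± 14841 in Balb/c-2, against 186485 ± 42315 in F0 (log2 change -1.45 ± 0.33, limma adjusted p = 0.0374). Col1a2, a chain of type I collagen, changed by -1.29 ± 0.23 (0.0123) and Col5a1, a chain of the type V collagen that regulates fibril width, by -1.22 ± 0.28 (0.0401). The list's median log2 change was -0.70 in N2.1, -0.73 in Balb/c-2 and -0.69 in CBA against F0, beside medians of all genes of -0.02, -0.02 and -0.08. Loxl1, Loxl3 and these 3 collagen genes all had their lowest mean in Balb/c-2. The 3 collagen genes were named for being called lower in Balb/c-2 against F0, so their place there is no separate result.

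Of 17 elastin and elastic fibre genes, 4 fell and 1 rose in Balb/c-2 against F0, 3 fell and 1 rose in CBA against F0, and 1 fell and 1 rose in N2.1 against F0. Efemp1, a fibulin of the elastic fibre, fell to 1238 ± 220 in Balb/c-2, against 6348 ± 683 in F0 (log2 change -2.37 ± 0.27, limma adjusted p = 8.54e-04). It fell to 755 ± 94.5 in CBA, against 6348 ± 683 in F0 (-3.07 ± 0.27, 9.85e-05). Ltbp2, a latent TGF-beta binding protein of microfibrils, changed by -3.32 ± 0.63 in Balb/c-2 (0.0163) and by -3.80 ± 0.63 in CBA (0.0054). Ltbp1 and Ltbp3, which hold latent TGF-beta in the matrix, changed in Balb/c-2 by -1.34 ± 0.29 (0.0321) and -1.47 ± 0.31 (0.0254). The gene that rose in N2.1 and in CBA was Emilin2, an elastin interface protein, by 1.96 ± 0.24 (0.0012) and 0.95 ± 0.24 (0.0448). Emilin2 was also higher in Balb/c-2, at 6637 ± 1588, against 2618 ± 458 in F0.

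Fbln5, the fibulin that binds Loxl1 and places it on elastin, was lowest in N2.1. It fell to 448 ± 28.0 in N2.1, against 3166 ± 1201 in F0 (log2 change -2.75 ± 0.46, limma adjusted p = 0.0060). In CBA against N2.1 it rose by 1.83 ± 0.46 (0.0368), while Loxl1 changed by -0.35 ± 0.24 (0.452). The list's median was -0.40 in N2.1, -1.34 in Balb/c-2 and -0.67 in CBA against F0.

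Of 11 tested genes for propeptide processing and matrix partners of the enzymes, 2 fell in N2.1, 3 in Balb/c-2 and 1 in CBA against F0, and none rose. Postn, periostin, which binds Bmp1 and aids the cutting of the Lox propeptide, fell to 3250 ± 118 in N2.1, against 45330 ± 26748 in F0 (log2 change -3.64 ± 0.50, limma adjusted p = 0.0024). It changed by -2.60 ± 0.50 in Balb/c-2 against F0 (0.0185) and rose by 3.14 ± 0.50 in CBA against N2.1 (0.0033). Adamts2, a protease that cuts procollagen and also Lox, was lower in each later passage than in F0, by -1.35 ± 0.31 in N2.1 (0.0230), -2.03 ± 0.31 in Balb/c-2 (0.0049) and -3.96 ± 0.31 in CBA (3.05e-05). Sparc, a collagen-binding matrix protein, changed in Balb/c-2 by -1.13 ± 0.27 (0.0431).

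Lysines must be hydroxylated before some crosslinks can form. Of 16 genes for collagen hydroxylation and folding, 4 fell in Balb/c-2 against F0 and 2 in Balb/c-2 against N2.1, and limma called none in N2.1 or CBA against F0. Plod1, a lysyl hydroxylase, fell to 5792 ± 1376 in Balb/c-2, against 13781 ± 2256 in F0 (log2 change -1.27 ± 0.24, limma adjusted p = 0.0171). The others that fell against F0 were the proline 3-hydroxylases P3h1 (-0.94 ± 0.22, 0.0431) and P3h3 (-1.57 ± 0.32, 0.0219) and their partner Crtap (-1.03 ± 0.18, 0.0102). P4ha1, a prolyl 4-hydroxylase subunit, changed in Balb/c-2 against N2.1 by -1.08 ± 0.22 (0.0264), and Plod1 by -1.25 ± 0.24 (0.0213). The list's median was -0.62 in Balb/c-2 against F0, beside -0.02 over all genes.

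In the list of genes for copper supply, the few genes called were higher, and copper itself was not measured. Of 9 genes, 2 rose in N2.1 and 2 in CBA against F0, and none in Balb/c-2. Mt1, a metallothionein that stores copper and zinc, rose to 39805 ± 12763 in N2.1, against 13849 ± 5744 in F0 (log2 change 1.57 ± 0.41, limma adjusted p = 0.0397), and by 1.62 ± 0.41 in CBA (0.0445). Slc31a2, a copper transporter of inner membranes, rose by 1.86 ± 0.36 in N2.1 (0.0116) and Mt2 by 3.04 ± 0.50 in CBA (0.0054). Of the 3 genes for copper amine oxidases outside the family, 2 passed the filter and none was called. Aoc3, a vascular amine oxidase, averaged 110 ± 52.3 in CBA and 414 ± 106 in N2.1 (-2.02 ± 0.58, 0.0600).

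Hypoxia and TGF-beta are known inducers of the family. Of 12 hypoxia targets, 4 rose in CBA against F0 and 2 in N2.1 against F0, and none fell. Slc2a1, the glucose transporter, rose to 28658 ± 2247 in CBA, against 7515 ± 3068 in F0 (log2 change 2.03 ± 0.39, limma adjusted p = 0.0119), and Car9, a carbonic anhydrase, by 2.49 ± 0.63 (0.0448). Ndrg1, a stress response gene, and Bnip3, a mitophagy receptor, rose in CBA by 2.40 ± 0.46 (0.0121) and 1.39 ± 0.35 (0.0436). In N2.1 Ndrg1 rose by 2.33 ± 0.46 (0.0124) and Slc2a1 by 1.74 ± 0.39 (0.0214). Lox, Loxl2 and Loxl4 had their lowest means in CBA, and a link of hypoxia or TGF-beta to the members' values was not tested.

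Of 13 genes of TGF-beta signalling, 2 fell in Balb/c-2 and 1 in CBA against F0. Tgfbi, a TGF-beta-induced matrix protein, fell to 23792 ± 2234 in Balb/c-2 and 24417 ± 4792 in CBA, against 48130 ± 4662 in F0 (log2 changes -1.02 ± 0.21 and -0.99 ± 0.21, limma adjusted p = 0.0228 and 0.0183). Tgfb3, a ligand, changed in Balb/c-2 by -1.75 ± 0.40 (0.0389). In CBA against N2.1, Tgfb2, another ligand, rose by 2.68 ± 0.57 (0.0169), while Smad3, a signal transducer, and Tgfbi changed by -1.20 ± 0.30 (0.0346) and -0.89 ± 0.21 (0.0234).

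Of 9 transcription factors and cadherins of the epithelial to mesenchymal transition, 2 fell in Balb/c-2 against F0 and none was called in N2.1 or CBA against F0. They were the factor Twist1, by -0.99 ± 0.23 on the log2 scale (limma, adjusted p = 0.0409), and the cadherin Cdh2, by -1.41 ± 0.32 (0.0367). Of 5 tested chains of collagen IV, the substrate of Loxl2, 2 fell in Balb/c-2 and 1 in CBA against F0. Col4a5 fell to 318 ± 162 in Balb/c-2, against 2886 ± 1669 in F0 (log2 change -3.12 ± 0.73, 0.0405). Col4a6 was at 0 in all 3 Balb/c-2 tumours and at 858 ± 654 in F0.

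Markers of other cell types moved with some of these results. The 10 fibroblast markers summed to 26022 to 36919 normalised counts in the 6 tumours of Balb/c-2 and CBA and to 44139 to 76248 in the 6 tumours of F0 and N2.1, with none of the 10 at 0 in all tumours. In Balb/c-2 against F0, 4 of them fell and 1 rose: Pdgfra by -1.90 ± 0.41 (limma, adjusted p = 0.0287), Pdgfrb by -1.80 ± 0.36 (0.0212) and Fap by -1.44 ± 0.34 (0.0423) were lower, and Pi16 was higher by 2.29 ± 0.54 (0.0422). In N2.1 against F0, where Loxl1 and Loxl3 were lower without overlap, 3 fell and 2 rose, and the sums overlapped. These sums lean on 1 gene, Dcn, which was at 44534 in N2.1 A, the tumour with the sum of 76248. Dcn averaged 26648 ± 17056 in N2.1 and 5191 ± 3175 in F0, while Pdgfra averaged 9299 ± 1824 and 20932 ± 4539. In CBA against F0, 1 of the 10 fell and none rose. The part of fibroblast content in the lower Loxl1 and Loxl3 was not tested.

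The 8 endothelial markers summed to 2613 to 3505 in CBA and to 5318 to 8732 in the other 9 tumours, the lowest of the 9 being F0 B. None of the 8 was at 0 in all tumours. In CBA, 4 of 8 fell against F0 and 5 of 8 against N2.1, and none rose. Tek, the angiopoietin receptor, fell to 20.95 ± 9.63 in CBA, against 119 ± 33.8 in N2.1 (log2 change -2.52 ± 0.42, limma adjusted p = 0.0039), and Kdr, a VEGF receptor, changed by -1.76 ± 0.34 (0.0089). Some markers of other cells were also lower in CBA against N2.1, and others were higher. Of the 10 fibroblast markers 4 fell, Pi16 by -4.73 ± 0.54 (3.63e-04), Col14a1 by -3.13 ± 0.63 (0.0124), Dcn by -2.57 ± 0.60 (0.0245) and Dpt by -1.84 ± 0.47 (0.0382), all in limma. Of the 8 macrophage markers 1 fell, Csf1r by -1.19 ± 0.26 (limma, 0.0195). Of the 6 adipocyte markers 2 fell in limma, Adipoq by -7.18 ± 1.87 (0.0399) and Pparg by -2.62 ± 0.59 (0.0217). None of the fibroblast, macrophage and adipocyte lists had a marker that rose. Of the 8 smooth muscle and pericyte markers 1 fell and 1 rose, and of the 3 keratinocyte markers tested 1 rose. The part of vessel, fibroblast, macrophage and adipocyte content in the lower Lox and Loxl2 of CBA was not tested. Rgs5, a pericyte marker, changed in CBA against F0 by -1.90 ± 0.29 (0.0038), but the sum of the 8 smooth muscle and pericyte markers overlapped, at 12408 to 22445 in CBA and 12264 to 14659 in F0.

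Macrophage markers differed between passages, with N2.1 above F0 and Balb/c-2 without overlap. The 8 macrophage markers summed to 91069 to 102090 in F0, 143260 to 159808 in N2.1, 78181 to 104128 in Balb/c-2 and 57717 to 156124 in CBA. Markers of skeletal muscle were at 139 in F0 B, against 1845 in F0 A and 3681 in F0 C. Those of adipocytes reached 26682 in Balb/c-2 A, and those of B and plasma cells 30272 in the same tumour, against 130.98 to 990.5 in F0. Keratinocyte markers summed to 71.9 to 309 over all tumours. The part of these contents in the members' values was not tested.

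Genes with the most similar profile were sought among 11518 genes over the 12 tumours, as the root mean square (RMS) difference of log2 values, each centred on its own mean. This is a description of 12 tumours that share libraries and passages, and genes among the 4 closest are named for each member. Closest to Loxl1 were B4galt2, a galactosyltransferase (RMS difference 0.155), Col1a2 (0.198), Zfp651, a zinc finger gene (0.216), and Tyro3, a receptor tyrosine kinase (0.217). Col1a2 averaged 160286 ± 34013 in F0, 98364 ± 8779 in N2.1, 64712 ± 1688 in Balb/c-2 and 89239 ± 18573 in CBA, the same order of passages as Loxl1.

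Closest to Loxl3 were Vwf, von Willebrand factor (0.211), Evc2, a gene of the primary cilium (0.237), Col5a1 (0.240) and Adamts7, a matrix protease (0.251). Loxl1 and Loxl3 differed from each other by 0.371, and Loxl3 ranked 120th from Loxl1. Both members' closest lists hold a fibrillar collagen gene, and both collagen genes are also among the 3 called in Balb/c-2 against F0. These genes were listed for profiles like those of Loxl1 and Loxl3, members that were themselves lower in Balb/c-2 than in F0. The lower level of the collagen genes there is therefore no separate result.

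Closest to Lox were Spats2l (0.368), Pecam1, an adhesion molecule of endothelium and leukocytes (0.422), Ms4a4a, a macrophage surface gene (0.438), and Mefv, which encodes pyrin (0.482). Pecam1 averaged 1272 ± 316 in CBA and 3434 ± 217 in N2.1 (log2 change -1.46 ± 0.31, limma adjusted p = 0.0163), and in F0 B it was at 1278, the lowest of F0. Among the closest to Loxl2 were Gpr132, a G protein-coupled receptor (0.416), Klrd1, a receptor of NK cells (0.432), and Mefv (0.462). Lox and Loxl2 differed from each other by 0.501, at which Loxl2 ranked 6th from Lox and Lox 5th from Loxl2 of 11518 genes. Loxl1 and Loxl3 ranked 9695th and 8611th from Lox.

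Among the closest to Loxl4 were Mpdz, a scaffold protein (0.416), Prdm16, a transcription factor (0.439), and Hacd4, an enzyme of fatty acid elongation (0.444). The nearest family member to Loxl4 was Loxl3, at rank 826.

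**Figure D5:**
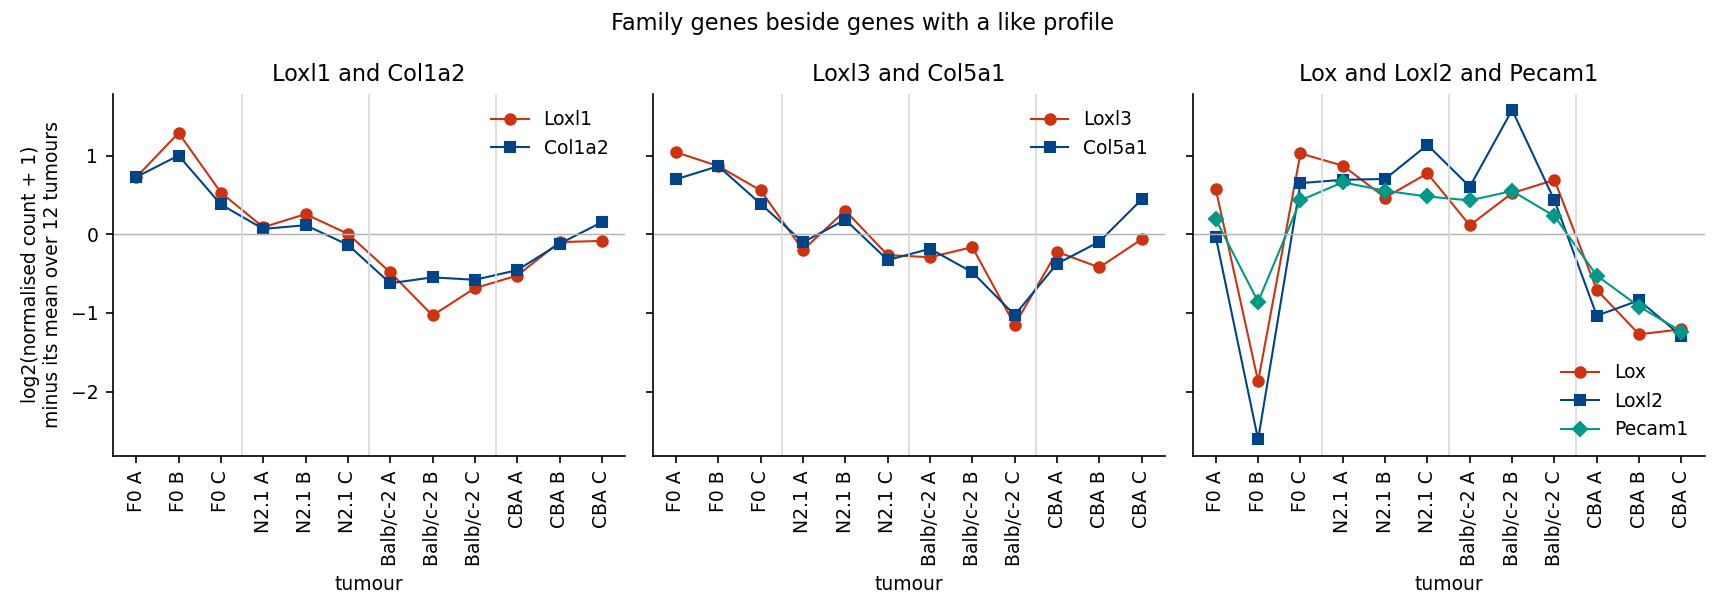
Log2(normalised count + 1) minus the gene's own mean over 12 tumours (y axis) in each tumour (x axis), for Loxl1 with Col1a2, Loxl3 with Col5a1, and Lox with Loxl2 and Pecam1. The lines join values of 1 gene and imply no order among tumours of a passage. Loxl1, Loxl3 and the collagen genes plotted with them are on average highest in F0, while Lox, Loxl2 and Pecam1 are low in F0 B and in CBA.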

How the data were processed

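The authors deposited 1 table of normalised signal for genes and single repeat copies. Per the submitters' processing notes the build was mm10 and the tools were featureCounts 1.5.0-p3, HISAT2 2.0.5 and StringTie 1.3.3b; the sources used here do not name the normalisation, the strand setting or the treatment of reads with several matches. Per the labels' protocols, directional and non-directional library steps are both described. All deposited signal values (100%) were whole multiples of a step per column, within 0.1 reads, so that read counts could be recovered for edgeR 4.0.16 and DESeq2 1.42.0.

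Symbols, exons and transcript sequences are from GENCODE M21, of that build. A gene was tested if at least 3 tumours reached 10. Tests used limma 3.58.1 (R 4.3.3) on log2(value + 1), with a trended prior, robust moderation and 1 mean per group fitted to 12 tumours together, which leaves 8 residual degrees of freedom. They were two-sided, with Benjamini-Hochberg adjustment across the whole table, and a call is an adjusted p under 0.05. The fits were tested on simulated data. Tumours of a group differed by far more than sampling noise (chi-square per gene at least 37.3), so all were counted.

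The members and lists were chosen with earlier results of these data known. From each list the text names called genes, at most 4 and by size of change, whose higher group averages 100 or more, or else the most abundant member. Of the 4 genes closest in profile to each family member, 2 in all are not reported here. Letters were treated as pairs for N2.1 and F0 alone, where same-letter deviations correlated at 0.181 to 0.478; in each of the other 5 comparisons at least 1 such correlation was under 0.1 (lowest -0.41). The labels say that letters mark different tumours and nothing of pairs, and that fit with a block was added after seeing the data. Alternatives were the pseudocount, the filter, quantile and TMM scaling, both count tools, the letter as a block, the flow cell, 2 groups alone and leaving out each tumour.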

Additional observations from a re-analysis of the deposited data

How the results depend on the processing

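Counts of members called here include Loxl1. Of 715 changes of single members under alternatives, 657 kept their direction and their side of the threshold, 23 lost a call, 24 gained one and 11 turned direction. With DESeq2, 2, 2, 3, 1, 3 and 1 members were called in N2.1, Balb/c-2 and CBA against F0, then Balb/c-2 and CBA against N2.1, and last for CBA over Balb/c-2, where limma called 0, 2, 2, 0, 0 and 0, and DESeq2 called 2663, 1907, 1787, 1281, 2335 and 1037 genes in all, where limma called 1383, 614, 882, 406, 1250 and 182. With the flow cell as a covariate 0 members were called in every comparison, and Loxl1 (0.0205) and Loxl3 (0.19) in CBA against N2.1 and Loxl2 in Balb/c-2 against N2.1 (-0.24, also within the shared flow cell) turned direction. Within a shared flow cell 1 member was called in N2.1 against F0 (2617 genes of 17491 in all) and 0 in Balb/c-2 against F0 (352 genes), a group of 1 tumour there that is assumed to vary like F0 and N2.1. No tumours of CBA shared a flow cell with F0 or N2.1, so those fits were not run. With the 2 groups alone 1 member was called in N2.1 against F0 (2615 genes), 0 in Balb/c-2 against F0 (172), 2 in CBA against F0 (Loxl3 and Loxl4; 622) and 2 in CBA against N2.1 (1798). Quantile scaling left 1 member called in CBA against F0 (833 genes) and moved the higher calls in N2.1 against F0 to 770 of 1507, against 875 of 1383. The replicate block over all groups left 1 member in CBA against F0 (660 genes); the block with N2.1 and F0 alone called 2 members and 5411 genes, and changed no call of Lox, Loxl2 or Loxl4.

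Without 1 tumour at a time, members called ranged from 0 to 1 in N2.1 (462 to 2093 genes in all), 1 to 2 in Balb/c-2 (227 to 817) and 0 to 3 in CBA against F0 (450 to 1155), from 0 to 2 in CBA against N2.1 (545 to 1788) and, set against Balb/c-2, from 0 to 2 in CBA (52 to 311). Log2 changes then ran from -0.10 to 1.35 for Lox in N2.1 against F0, from -0.36 to 1.09 for Lox in Balb/c-2 against F0, from -1.37 to 0.27 for Loxl2 in CBA against F0, from -0.33 to 0.25 for Loxl2 in Balb/c-2 against N2.1 and from -0.0080 to 0.49 for Loxl3 in CBA against Balb/c-2. The causes of these shifts were not tested. With 3 tumours a group, the SE of a log2 change of Lox, Loxl2 or Loxl4 was 0.57 to 0.66.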
